A study of Mus musculus with 9 samples.

Results

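The Hox genes of 3T3-L1 cells were followed through adipocyte differentiation. They were taken as every gene listed in the expression files whose symbol begins with Hoxa, Hoxb, Hoxc or Hoxd and a number, and 34 of the 19094 listed genes met that rule. Of these, 32 code for Hox proteins and 2, Hoxb5os and Hoxd3os1, are antisense RNA genes. The mouse has 39 Hox protein genes in 4 clusters, and 7 of them (Hoxa11, Hoxa13, Hoxb1, Hoxc12, Hoxd1, Hoxd12 and Hoxd13) are not among the listed genes. RNA was sequenced from 9 samples of 3T3-L1, a mouse line of fibroblast-like preadipocytes, with 3 samples at each of days 0, 4 and 8. Day 0 cells were confluent preadipocytes in complete medium with serum. Day 4 cells had been given dexamethasone, IBMX and insulin in the same medium for 2 days and then insulin alone for 2 days, and day 8 cells had insulin for 4 days more. All samples came from that line, which is a single line and not tissue, and from cells pooled at each stage. No source states that the 3 samples of a day were separate cultures, so p-values measure only the spread between these samples, which may be technical. In total a sample held from 18216114 to 20452144 expected counts, and the Hox genes together took 211 to 247 CPM (a count divided by all counts of its sample, then rescaled).

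Hox genes code for homeodomain transcription factors. They lie in clusters in which the order of the genes follows the order of the body levels where they act, from the head end (low numbers, called anterior) to the tail end (high numbers, called posterior). Genes of the same number in different clusters are paralogs, which arose when an ancestral cluster was duplicated. In the embryo, Polycomb proteins keep the unused genes of a cluster silent, Trithorax proteins keep the active ones on, and retinoic acid switches on the anterior genes. Fibroblasts and fat depots of the adult keep a Hox pattern that reflects the body site they came from, which is why the pattern is described as positional identity.

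The active Hox genes formed blocks at the anterior ends of the Hoxa and Hoxb clusters and within Hoxd, and Hoxc was almost silent apart from its last gene. Levels are given in FPKM, a count scaled to the depth of the sample and to the length of the gene, which may be compared between genes. A gene was termed expressed when its FPKM was at least 1 in all 3 samples of at least 1 day, and 15 of the 39 genes met this. They included Hoxa2 to Hoxa7, 3 of 10 genes of Hoxb (Hoxb2 to Hoxb4), 1 of 9 of Hoxc (Hoxc13) and 4 of 9 of Hoxd (Hoxd3, Hoxd4, Hoxd8 and Hoxd9). The number was 16 with a minimum of 0.5, which added Hoxc9, and 11 with a minimum of 5. With 1 FPKM required in all 9 samples it was 14, since Hoxa6 was below it in 1 sample at day 4 and in 2 at day 8.

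**Figure D1:**
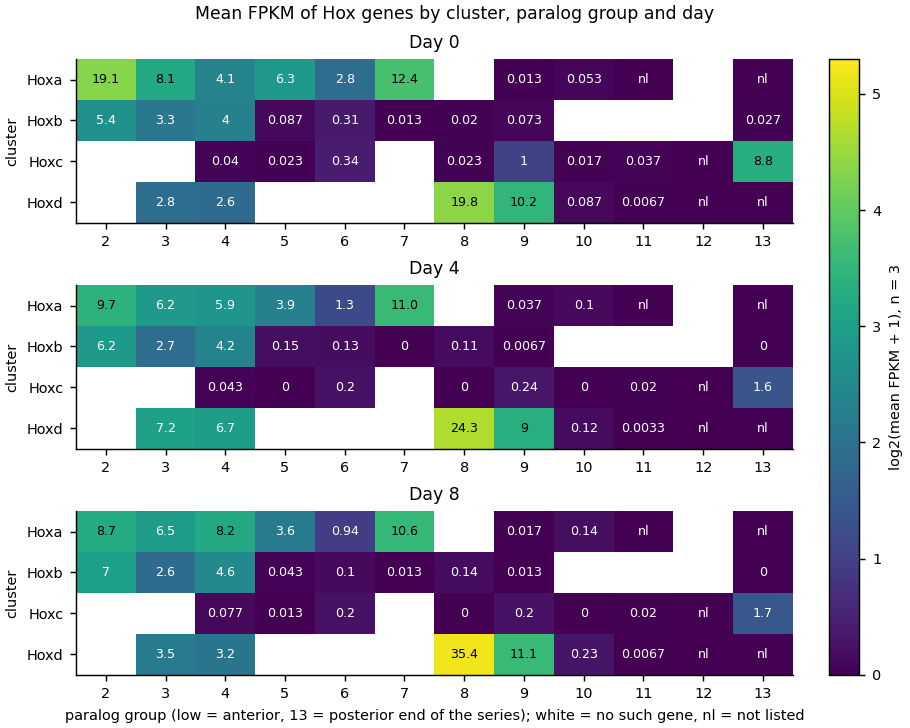
Mean FPKM of the Hox genes of paralog groups 2 to 13 (n = 3), printed in the cell and coloured as log2(FPKM + 1), for the 4 clusters (rows) and the paralog groups (columns) at days 0, 4 and 8. "nl" marks genes that are not listed and white cells mark genes the mouse does not have. The bright cells run from Hoxa2 to Hoxa7, from Hoxb2 to Hoxb4 and over Hoxd3, Hoxd4, Hoxd8 and Hoxd9, with Hoxa6 dim at days 4 and 8, and Hoxc13 is far brighter at day 0 than later.

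The edges of the blocks were sharp. Hoxa7 averaged 11.3 FPKM over the 9 samples and its neighbour Hoxa9 averaged 0.0222, with no more than 4 counts in any sample. Hoxb4 averaged 4.25 FPKM and Hoxb5 0.0922. Hoxd9 averaged 10.1 FPKM and Hoxd10 0.146. All 3 edges lay between neighbouring genes of a cluster, and none of the genes behind them reached 1 FPKM in any sample. Hoxc13, the gene at the posterior end of its cluster, which is known for its role in hair and nail, stood alone at 4.07 FPKM while its neighbour Hoxc12 was not listed.

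Among the listed genes, 10 of the 13 paralog groups had an expressed member, and groups 10, 11 and 12 had none. Both genes of group 2 and all 3 of group 3 were expressed, and so were 3 of 4 in group 4 (all but Hoxc4). Groups 5, 6 and 7 were represented by Hoxa alone, groups 8 and 9 by Hoxd alone and group 13 by Hoxc13 alone. Of the other 24 genes, 10 had more than 3 counts in some sample (Hoxa9, Hoxa10, Hoxb5, Hoxb6, Hoxb8, Hoxb9, Hoxc4, Hoxc6, Hoxc9 and Hoxd10). The remaining 14 were the 7 unlisted genes, not analysed here, and Hoxb7, Hoxb13, Hoxc5, Hoxc8, Hoxc10, Hoxc11 and Hoxd11. These last never exceeded 3 counts, the floor used here, which corresponds to 0.147 to 0.165 CPM, and their expression was not detectable at this depth. The listed genes among the 24 gave 0.938% to 1.76% of the Hox counts of a sample. Most of the low genes kept a few reads: Hoxc6 had between 0.09 and 0.42 FPKM, Hoxb6 between 0.04 and 0.37, and Hoxd10 between 0.03 and 0.32. The antisense gene Hoxd3os1 lay between 0.13 and 0.9 FPKM with at most 14 counts, and Hoxb5os had 1 count in 1 sample. In the annotation (GENCODE vM21) the exons of these 2 antisense genes share 0 bases with those of other genes.

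Hoxd8 was the most abundant Hox gene on each day, and the order below it changed. At day 0 Hoxd8 (19.8 ± 0.558 FPKM, SD, n = 3) and Hoxa2 (19.1 ± 0.654) had overlapping samples, and Hoxa7 (12.4 ± 0.616), Hoxd9 (10.2 ± 1.04), Hoxc13 (8.85 ± 1.02) and Hoxa3 (8.12 ± 0.328) followed. Hoxd9 overlapped Hoxc13, and Hoxc13 overlapped Hoxa3. At day 4 Hoxd8 stood apart from Hoxa7 (24.3 ± 2.64 against 11.0 ± 0.561 FPKM), while the samples of Hoxd3, Hoxd4, Hoxa3, Hoxb2 and Hoxa4, between 7.15 and 5.90 FPKM on average, overlapped from each gene to the next. At day 8 Hoxd8 reached 35.4 ± 0.947 FPKM and the next gene, Hoxd9, 11.1 ± 1.20, which overlapped Hoxa7 at 10.6 ± 0.678. Hoxa6 was the lowest of the 15 at days 4 and 8, with 0.943 ± 0.315 FPKM at day 8.

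**Figure D2:**
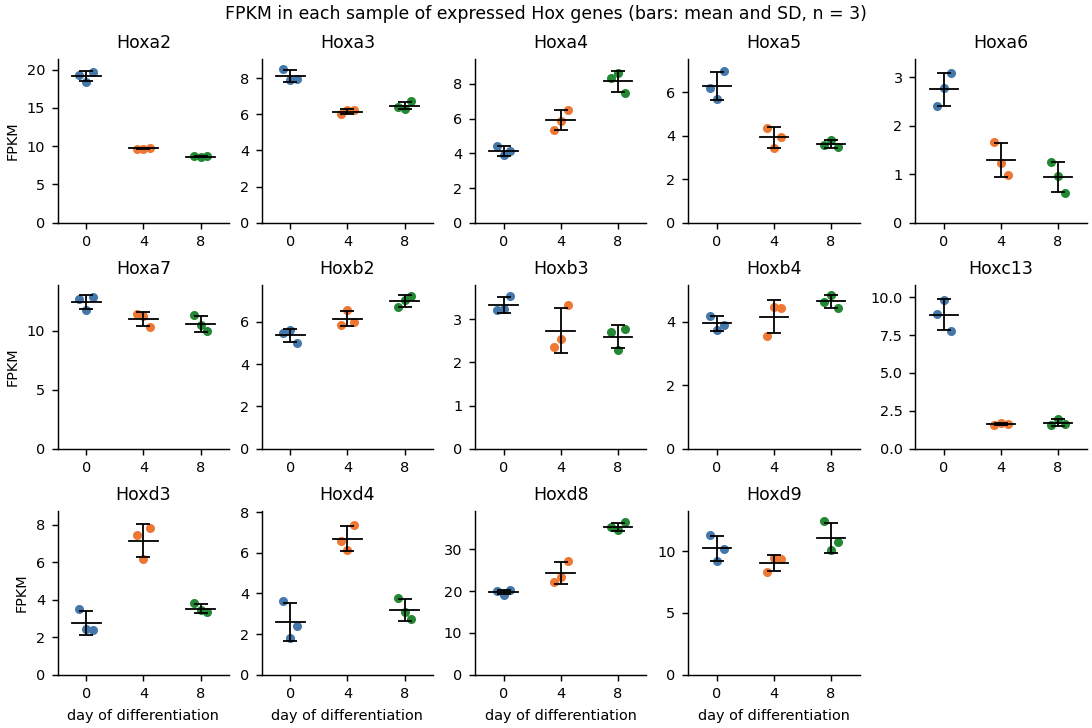
FPKM of expressed Hox genes in each sample against day (points), with the mean and SD of the 3 samples of a day; each vertical axis starts at 0. Hoxc13 drops from 8.85 to 1.63 FPKM between days 0 and 4, Hoxd3 and Hoxd4 peak at day 4, and Hoxd8 and Hoxa4 rise at both steps.

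The stretches before the transcript starts of Hoxd8, Hoxd3, Hoxd4 and Hoxa2 are printed to show the most abundant gene, the 2 neighbours that peaked together at day 4, and the abundant gene that fell most in FPKM. They are the 250 bases before each start from RefSeq on GRCm38.p6, read 5′ to 3′ on the strand of the gene, and 22 of the 39 genes had an entry. Hoxd8 lies at chr2:74704365-74704614, Hoxd3 at chr2:74711743-74711992 and Hoxd4 at chr2:74721728-74721977, all on the plus strand, and Hoxa2 at chr6:52164832-52165081 on the minus strand. Capitals mark matches on either strand. For a site of Pbx with Hox proteins the letters searched were TGATTNAT, and for a Meis site TGACAG. The promoter element bound by the factor NF-Y was searched as CCAAT. The element bound by Sp proteins was searched as GGGCGG, and the element bound by the TATA binding protein as TATAAA. The cAMP response element was searched as TGACGTCA. No matches overlap in these windows.
Hoxd8: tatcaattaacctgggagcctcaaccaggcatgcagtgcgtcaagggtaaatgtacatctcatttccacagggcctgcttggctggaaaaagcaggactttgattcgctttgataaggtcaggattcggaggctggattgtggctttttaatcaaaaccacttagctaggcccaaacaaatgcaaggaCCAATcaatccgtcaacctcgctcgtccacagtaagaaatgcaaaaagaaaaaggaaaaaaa
Hoxd3: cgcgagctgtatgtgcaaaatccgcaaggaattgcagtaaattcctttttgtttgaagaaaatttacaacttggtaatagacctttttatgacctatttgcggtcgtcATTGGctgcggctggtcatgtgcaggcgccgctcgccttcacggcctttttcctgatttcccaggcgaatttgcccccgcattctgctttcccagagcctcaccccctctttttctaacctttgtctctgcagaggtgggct
Hoxd4: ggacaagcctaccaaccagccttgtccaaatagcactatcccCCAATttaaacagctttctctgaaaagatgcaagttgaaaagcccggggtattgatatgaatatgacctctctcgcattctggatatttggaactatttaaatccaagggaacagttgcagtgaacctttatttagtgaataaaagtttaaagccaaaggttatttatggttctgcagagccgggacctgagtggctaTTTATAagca
Hoxa2: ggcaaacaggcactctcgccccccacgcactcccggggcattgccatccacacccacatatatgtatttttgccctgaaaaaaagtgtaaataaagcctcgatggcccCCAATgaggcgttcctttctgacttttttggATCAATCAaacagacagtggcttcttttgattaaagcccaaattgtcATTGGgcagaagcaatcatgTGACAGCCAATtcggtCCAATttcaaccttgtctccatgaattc

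All 4 windows held CCAAT, which 33.9% of 32851 mouse promoter windows of the same length also held. In Hoxd8 it lay 62 to 58 bases before the start, in Hoxd3 142 to 138 bases and in Hoxd4 208 to 204 bases, and in Hoxd3 it was on the opposite strand and so reads ATTGG. Hoxd4 also held TATAAA on the opposite strand, 10 to 5 bases before the start, a match that 12.4% of all windows had. Only the Hoxa2 window, among these 4, held TGATTNAT (111 to 104 bases before the start, opposite strand) and TGACAG (44 to 39 bases). All windows held these at shares of 2.83% and 15.9%. GGGCGG (32.7% of all windows) and TGACGTCA (1.55%) were not matched in the 4 windows. A match is a description of the letters and was not tested as a binding site.

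The weight of expression moved from Hoxa and Hoxc to Hoxd, where Hoxd8 was the most abundant gene. The summed FPKM of all Hox genes was 115 ± 4.13 (SD, n = 3) at day 0, 103 ± 4.67 at day 4 and 111 ± 2.25 at day 8. Hoxa held 48.6% ± 1.26 of it at day 0, 39.2% ± 1.98 at day 4 and 36.8% ± 0.897 at day 8. Hoxd held 30.9% ± 1.34, 45.7% ± 1.82 and 48.1% ± 1.15 on the same days. The lowest Hoxa share at day 0 (47.7%) was above the highest at day 4 (41.0%), and the highest Hoxd share at day 0 (32.3%) was below the lowest at day 4 (44.5%). Hoxc fell from 9.06% ± 1.30 to 2.07% ± 0.046 and 2.02% ± 0.33, and Hoxb was 11.5% ± 0.294, 12.99% ± 0.852 and 13.1% ± 0.33. These shares are descriptions without a test.

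**Figure D3:**
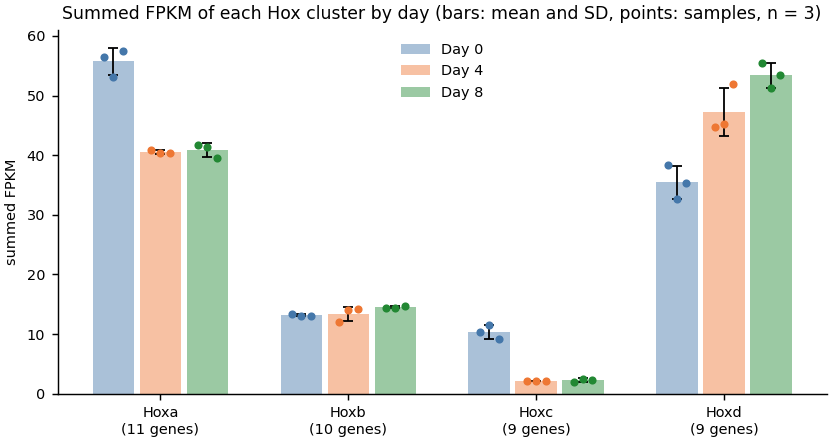
Summed FPKM of the genes of each Hox cluster by day (bars, mean and SD of 3 samples; points, single samples). Hoxa stands at 55.7 at day 0 and 40.5 at day 4, Hoxc at 10.4 and 2.14, and Hoxd rises from 35.4 through 47.3 to 53.4.

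Along the anterior to posterior axis the share moved to the middle. Paralog groups 1 to 3 held 36.2% of the summed FPKM at day 0, 33.2% at day 4 and 27.5% at day 8. Groups 4 to 8 held 46.0%, 56.0% and 60.4%, and groups 9 to 13 held 17.8%, 10.8% and 12.1%. Group 8, which is almost wholly Hoxd8, took 17.3%, 23.6% and 32.0%, and group 2, which is Hoxa2 and Hoxb2, took 21.4%, 15.4% and 14.1%. These shares depended on Hoxd8. Without it, the summed FPKM went from 94.9 ± 3.75 at day 0 to 79.1 ± 2.04 by day 4, and by day 8 stood at 75.7 ± 2.54. Groups 1 to 3 then held 43.7%, 43.4% and 40.4%, groups 4 to 8 held 34.8%, 42.5% and 41.9%, and groups 9 to 13 held 21.5%, 14.2% and 17.7%. The Hoxd share without Hoxd8 was 16.5%, 29.1% and 23.8%, lower at day 8 than at day 4, and the Hoxa share was 58.7%, 51.2% and 54.0%, higher at day 8 than at day 4.

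A change was called at an adjusted p under 0.05 by edgeR's quasi-likelihood test (Benjamini-Hochberg over 13154 genes) together with a fold change above 2. The filter on low counts left 17 of the 34 Hox rows in the test, the 15 expressed genes with Hoxc6 and Hoxc9. In the early phase (day 4 against day 0) Hoxd3 and Hoxd4 rose and Hoxc13 and Hoxc9 fell, that is 2 higher and 2 lower, where 9.77% of all tested genes were called higher and 7.98% lower. In the late phase (day 8 against day 4) Hoxd4 fell and no Hox gene was called higher, against 4.24% higher and 2.81% lower over all genes. Over the whole process (day 8 against day 0) Hoxa4 was higher and Hoxc13, Hoxc9, Hoxa6 and Hoxa2 were lower, against 10.3% higher and 7.70% lower. The 3 comparisons share samples, so they are not independent of each other.

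By adjusted p alone, smaller shifts passed as well. In the early phase 5 passed higher and 6 lower (background 35.5% and 33.7%), in the late phase 3 and 2 (22.5% and 22.7%), and over the whole process 6 and 6 (34.8% and 36.2%). In TMM-normalised counts the samples of the 2 days did not overlap in 11 of 17 genes in the early phase (72.3% of all genes), 9 in the late phase (54.6%) and 13 over the whole process (75.5%). The median log2 fold change of the 17 was -0.17 early, -0.01 late and -0.19 over the whole process, beside 0.02, -0.01 and -0.02 over all tested genes. Hoxa7, Hoxb3 and Hoxc6 passed in no comparison. In bulk RNA, fewer cells that express a gene and less RNA per cell cannot be told apart.

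**Figure D4:**
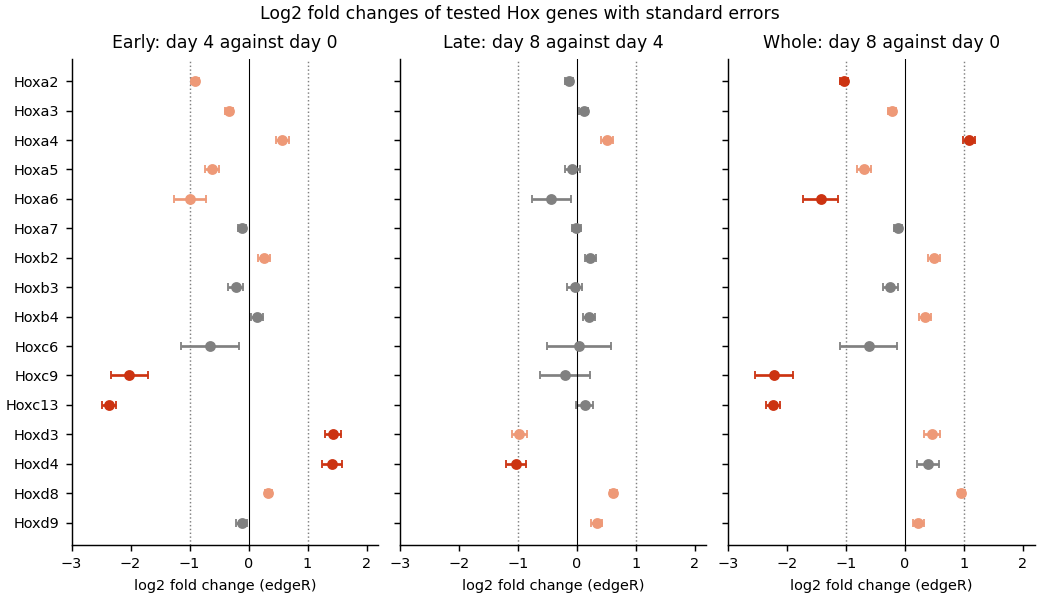
Log2 fold changes with standard errors (edgeR) of tested Hox genes in the early phase, the late phase and the whole process. Red points passed an adjusted p of 0.05 and a fold of 2 (dotted lines), pale red points passed the adjusted p alone and grey points neither. Hoxc13 and Hoxc9 lie furthest left in the early phase, and Hoxd3 and Hoxd4 lie furthest right.

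In the Hoxc cluster Hoxc13, its expressed gene, and the low gene Hoxc9 were called lower at day 4, and neither passed the test between days 4 and 8. Hoxc13 had 8.92, 9.83 and 7.79 FPKM in the day 0 samples, 1.57, 1.69 and 1.63 at day 4 and 1.57, 1.97 and 1.65 at day 8. All day 0 samples were above all later ones, and days 4 and 8 overlapped. Its early fall was 5.17-fold, with a log2 fold change of -2.37 ± 0.12 (SE, edgeR adjusted p = 2.9e-11). The late log2 fold change was 0.13 ± 0.14 (edgeR adjusted p = 0.47). Hoxc9, a gene of the thoracic region, had 0.86, 1.25 and 1.03 FPKM at day 0, 0.29, 0.23 and 0.21 at day 4 and 0.15, 0.17 and 0.29 at day 8, with at most 39 counts in a sample. It was lower at both later days in every sample, with an early log2 fold change of -2.02 ± 0.31 (edgeR adjusted p = 2.4e-05). The Hoxc9 call was lost with limma on log2(FPKM + 1), where the early change was -0.72, and with a filter of 10 counts in every sample, which removes the gene from the test. Its counts were 30, 39 and 36 at day 0 and 5 to 10 later, so its place in the test rested mainly on day 0. The direction of its call is then not independent of the filter. Hoxc6 gave an early log2 fold change of -0.66 ± 0.49 (edgeR adjusted p = 0.24), with at most 12 counts in a sample.

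Hoxd3 and Hoxd4, adjacent genes that act in the hindbrain and neck region of the embryo, rose at day 4 and came back down by day 8. Hoxd3 had 3.49, 2.45 and 2.37 FPKM at day 0, 7.47, 6.16 and 7.83 at day 4 and 3.83, 3.44 and 3.34 at day 8. Hoxd4 had 3.62, 1.8 and 2.4 FPKM at day 0, 6.57, 6.13 and 7.38 at day 4 and 3.77, 3.07 and 2.72 at day 8. Every day 4 sample of both genes was above every sample of the other days. The early log2 fold change was 1.43 ± 0.13 for Hoxd3 (edgeR adjusted p = 6.4e-08) and 1.41 ± 0.18 for Hoxd4 (edgeR adjusted p = 2.4e-06). The late change was -0.97 ± 0.13 for Hoxd3 (edgeR adjusted p = 1.1e-05) and -1.02 ± 0.17 for Hoxd4 (edgeR adjusted p = 0.00013). These late values lie on either side of the fold of 2. Over the whole process Hoxd3 was 0.46 ± 0.14 higher (edgeR adjusted p = 0.0085), and the Hoxd4 change of 0.39 ± 0.19 did not pass (edgeR adjusted p = 0.077).

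The FPKM of Hoxd3 was 0.964 to 1.36 times that of Hoxd4 in every sample. In the annotation (GENCODE vM21) the span of Hoxd3 encloses Hoxd4, and the exons of the transcripts named in the files share 0 bases. The late call of Hoxd4 was lost without day 4 replicate 3 (log2 fold change -0.95), day 8 replicate 2 (-0.9956) or day 8 replicate 3 (-0.91) and with limma on log2(FPKM + 1) (-0.88). Hoxd3 passed the late fold of 2 without day 4 replicate 2 (-1.04) or day 8 replicate 1 (-1.03) and with library size alone (-1.02).

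Hoxd8 rose at each step, and Hoxd9 moved little. Hoxd8, which acts in the trunk, had 19.9, 19.15 and 20.24 FPKM at day 0, 22.21, 23.38 and 27.25 at day 4 and 35.2, 34.52 and 36.39 at day 8. The 3 days did not overlap. Its log2 fold change was 0.34 ± 0.07 early (edgeR adjusted p = 0.00024), 0.62 ± 0.06 late (edgeR adjusted p = 6.7e-07) and 0.96 ± 0.06 over the whole process (edgeR adjusted p = 1.2e-09), all under the fold of 2. Hoxd9 had 11.27, 9.19 and 10.17 FPKM at day 0, 8.29, 9.44 and 9.37 at day 4 and 12.4, 10.07 and 10.76 at day 8. Only days 4 and 8 were apart, with a late log2 fold change of 0.34 ± 0.09 (edgeR adjusted p = 0.0071), and the whole change was 0.23 ± 0.09 (edgeR adjusted p = 0.037).

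Within Hoxa most genes fell and Hoxa4 rose. Hoxa2, which patterns the hindbrain and the second pharyngeal arch, had 19.3, 18.43 and 19.71 FPKM at day 0, 9.7, 9.62 and 9.83 at day 4 and 8.68, 8.54 and 8.73 at day 8. Its samples were tight and the 3 days did not overlap. The log2 fold change was -0.91 ± 0.06 early (edgeR adjusted p = 1.9e-09) and -1.03 ± 0.06 over the whole process (edgeR adjusted p = 4.6e-10), and the late change of -0.12 ± 0.07 did not pass (edgeR adjusted p = 0.16). Hoxa4, a gene of the neck region, had 4.42, 3.88 and 4.13 FPKM at day 0, 5.36, 5.85 and 6.5 at day 4 and 8.35, 8.62 and 7.49 at day 8, again with no overlap between days. It was higher by a log2 fold change of 0.57 ± 0.11 early (edgeR adjusted p = 0.00023), 0.51 ± 0.10 late (edgeR adjusted p = 0.00067) and 1.09 ± 0.11 over the whole process (edgeR adjusted p = 1.4e-07). With library size alone (0.97) and with limma (0.83 with a pseudocount of 1 and 0.96 with 0.1) the whole change of Hoxa4 was under the fold of 2.

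Hoxa5 and Hoxa6 followed Hoxa2 downward. Hoxa5, which acts in the neck and in lung development, had 6.2, 5.69 and 6.98 FPKM at day 0, 4.37, 3.43 and 3.96 at day 4 and 3.55, 3.81 and 3.46 at day 8. All day 0 samples were above the later ones, with a log2 fold change of -0.62 ± 0.11 early (edgeR adjusted p = 0.00015) and -0.69 ± 0.12 over the whole process (edgeR adjusted p = 5.3e-05). Hoxa6 had 2.4, 2.77 and 3.08 FPKM at day 0, 1.66, 1.24 and 0.98 at day 4 and 1.25, 0.96 and 0.62 at day 8, from at most 42.4 counts in a sample. Its log2 fold change was -0.998 ± 0.27 early, just under the fold of 2 (edgeR adjusted p = 0.0043), and -1.43 ± 0.29 over the whole process (edgeR adjusted p = 0.00039). The early value passed the fold of 2 in 10 of the alternatives, at -1.0017 to -1.228, and the whole value fell short of it with limma on log2(FPKM + 1) (-0.96). A filter of 10 counts in every sample removes Hoxa6 from the test.

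Hoxa3 gave smaller values, and Hoxa7 did not pass. Hoxa3, needed for the thymus and parathyroid, had 8.5, 7.9 and 7.97 FPKM at day 0, 6, 6.22 and 6.24 at day 4 and 6.43, 6.3 and 6.72 at day 8. Day 0 was above the later days, and it fell early by a log2 fold change of -0.33 ± 0.07 (edgeR adjusted p = 0.00061). In its exons, 17.99% of bases lie opposite the antisense genes Hoxaas2 and Hoxaas3, and the protocol does not say whether strand was kept, so counts of these genes cannot be told apart where they overlap. Hoxa7 ranged from 9.96 to 12.86 FPKM over all 9 samples. Its whole log2 fold change was -0.12 ± 0.07 (edgeR adjusted p = 0.15).

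In Hoxb the 3 active genes stayed within a narrow range. Hoxb2, a hindbrain gene, had 5.47, 5.62 and 5.01 FPKM at day 0, 5.87, 6.56 and 6.02 at day 4 and 6.7, 7.02 and 7.25 at day 8, with no overlap between days. It rose by a log2 fold change of 0.26 ± 0.10 early (edgeR adjusted p = 0.023) and 0.50 ± 0.10 over the whole process (edgeR adjusted p = 0.00022). Hoxb4, known for its action in blood stem cells, was 3.95 ± 0.229 FPKM at day 0 and 4.64 ± 0.205 at day 8, a log2 fold change of 0.34 ± 0.10 (edgeR adjusted p = 0.0072). Hoxb3 was 3.32 ± 0.188 FPKM at day 0 and 2.59 ± 0.265 at day 8, and its log2 fold change of -0.25 ± 0.13 did not pass (edgeR adjusted p = 0.086).

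Paralogs of group 4 and group 3 took different courses. In group 4 the FPKM of Hoxa4 rose at both steps, Hoxd4 peaked at day 4, Hoxb4 moved by less than a fold of 2 and Hoxc4 stayed at or below 0.1. In group 3 Hoxd3 peaked at day 4 while Hoxa3 was lower at day 4 and Hoxb3 did not pass. In group 2 Hoxa2 fell and Hoxb2 rose in the early phase, so that Hoxa2 stood at 19.1 against 5.37 FPKM at day 0 and at 8.65 against 6.99 at day 8. The difference between paralogs was not tested.

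Non-coding RNA genes of the clusters, many of which lie between or opposite Hox genes, were listed for 8 of 19 names (Hoxb5os and Hoxd3os1 among them), and 5 were tested. In the early phase 1 was called higher and 2 lower (9.77% and 7.98% over all genes), and over the whole process 1 higher and 3 lower (10.3% and 7.70%). The median log2 fold change of the 5 was -0.99 early and -1.22 over the whole process. Haglr, which lies beside Hoxd3 and Hoxd1, had 0.26, 0.25 and 0.18 FPKM at day 0, 0.67, 0.72 and 0.7 at day 4 and 0.48, 0.4 and 0.31 at day 8. Like Hoxd3 and Hoxd4 it was highest in the day 4 samples, with a log2 fold change of 1.67 ± 0.27 early (edgeR adjusted p = 4.4e-05) and -0.76 ± 0.24 late (edgeR adjusted p = 0.019).

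Hotair, a long RNA transcribed within the Hoxc cluster, had 0.4, 0.42 and 0.44 FPKM at day 0, 0.16, 0.15 and 0.09 at day 4 and 0.11, 0.18 and 0.07 at day 8. Like Hoxc13 it was highest in the day 0 samples, with an early log2 fold change of -1.55 ± 0.37 (edgeR adjusted p = 0.0015). Hotair had at most 20 counts in a sample, so its passing the filter on low counts may have rested on day 0. The direction of this call is then not independent of the filter. Hotairm1, which lies near Hoxa2, had 12.45, 12.97 and 10.89 FPKM at day 0, 12.38, 13.58 and 17.54 at day 4 and 24.58, 22.26 and 23.29 at day 8. It was higher at day 8 than in all other samples, with a whole log2 fold change of 1.06 ± 0.16 (edgeR adjusted p = 1.6e-05), while Hoxa2 was lower at day 8 than at day 0. The antisense genes Hoxaas2 and Hoxaas3 fell over the whole process, with log2 fold changes of -1.22 ± 0.16 (edgeR adjusted p = 5e-06) and -1.50 ± 0.30 (edgeR adjusted p = 0.00033). Both lie opposite exon bases of Hoxa3, and whether strand was kept is not stated, so their values may hold reads of Hoxa3.

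**Figure D5:**
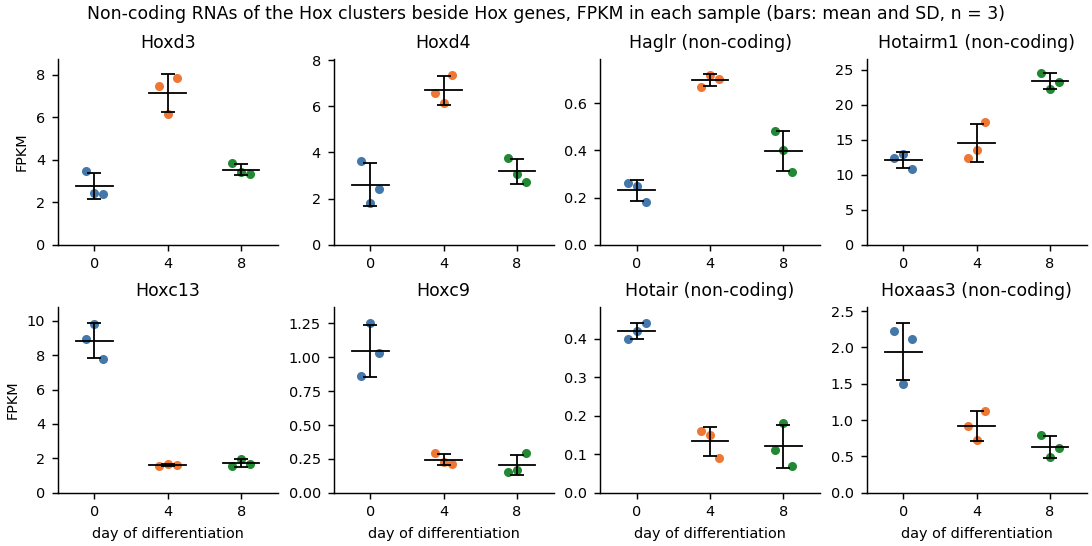
FPKM in each sample (points) with mean and SD (n = 3) of non-coding RNA genes of the clusters beside Hox genes, against day; each vertical axis starts at 0. Haglr peaks at day 4 as Hoxd3 and Hoxd4 do, Hotair is highest at day 0 as Hoxc13 and Hoxc9 are, and Hotairm1 is highest at day 8.

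Of 15 genes flanking the clusters 10 were tested, and 1 was called higher at day 4 against day 0 and at day 8 against day 0 (9.77% and 10.3% over all genes), with no other call. Over all genes 7.98% and 7.70% were called lower in those comparisons, and 4.24% higher and 2.81% lower late. Hibadh, an enzyme of valine breakdown that lies beyond the posterior end of Hoxa, had 34.85, 35.6 and 36.07 FPKM at day 0, 99.14, 111.61 and 122.56 at day 4 and 114.8, 116.11 and 119.39 at day 8. Its early log2 fold change was 1.71 ± 0.07 (edgeR adjusted p = 1.2e-12). Evx1 and Evx2, the homeobox genes next to Hoxa13 and Hoxd13, were not listed. Of the ParaHox and Cdx genes, the sister family that includes regulators of Hox genes in the embryo, only Cdx1 was listed, at up to 0.17 FPKM.

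The TALE proteins (Pbx, Meis and Pknox), homeodomain partners that bind DNA with Hox proteins, were abundant and shifted by less than a fold of 2. All 9 were tested and 8 had at least 1 FPKM in all 9 samples, the exception being Pbx4. None was called in any comparison. Over all genes 9.77% were called higher and 7.98% lower early, 4.24% and 2.81% late, and 10.3% and 7.70% over the whole process. By adjusted p alone 3 rose and 5 fell in the early phase (35.5% and 33.7% over all genes). Late, 3 rose and 1 fell (22.5% and 22.7%), and over the whole process 2 rose and 4 fell (34.8% and 36.2%). Their median log2 fold change was -0.17 early, -0.02 late and -0.04 over the whole process. Meis2, the most abundant of them at day 0, had 44.65, 43.94 and 46.07 FPKM at day 0, 23.4, 21.39 and 22.32 at day 4 and 25.06, 24.2 and 24.72 at day 8. Day 0 was above both later days, with an early log2 fold change of -0.94 ± 0.05 (edgeR adjusted p = 3.3e-11). Pbx3 (-0.67 ± 0.09), Meis1 (-0.29 ± 0.07) and Pknox1 (-0.17 ± 0.06) also fell early on the log2 scale. Pbx2 (0.49 ± 0.04), Meis3 (0.18 ± 0.06) and Pknox2 (0.23 ± 0.09) rose.

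Polycomb and Trithorax genes were expressed almost throughout and few passed a fold of 2. Of 31 Polycomb genes, all tested, 0 were called higher and 1 lower in the early phase by edgeR's quasi-likelihood test (5 and 18 by adjusted p alone), with a median log2 fold change of -0.21. Late, 1 was called higher and 0 lower (10 and 3 by adjusted p alone), and over the whole process 3 higher and 0 lower (9 and 16). Over all genes the shares called higher and lower were 9.77% and 7.98% early, 4.24% and 2.81% late and 10.3% and 7.70% over the whole process. By adjusted p alone those shares were 35.5% and 33.7%, 22.5% and 22.7%, and 34.8% and 36.2%. Pcgf5, a subunit of a Polycomb ring complex, went from 20.3 FPKM at day 0 to 8.32 at day 4 and 17.4 at day 8, with log2 fold changes of -1.22 ± 0.10 early (edgeR adjusted p = 9.3e-09) and 1.11 ± 0.10 late (edgeR adjusted p = 1.2e-07). Phf19 (log2 fold change 1.07 ± 0.39, with at most 19 counts) and Jarid2 (1.04 ± 0.08), further Polycomb components, were higher at day 8 than at day 0. Phf19 had at most 0.13 FPKM at day 0, so its passing the filter on low counts may have rested on the later days. The direction of the Phf19 call is then not independent of the filter. Of 16 Trithorax genes, beside the same shares, 0 were called in the early phase (1 higher and 9 lower by adjusted p alone) and in the late phase (3 and 5), and over the whole process 1 was called lower (2 and 12). That gene was Kmt2a, the methyltransferase long known to maintain Hox expression, which had 9.12 FPKM at day 0, 6.20 at day 4 and 4.09 at day 8 (whole log2 fold change -1.05 ± 0.07, edgeR adjusted p = 9e-10).

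Other transcription factors of body position were listed for 38 of 46 names, and 27 were tested. In the early phase 2 were called higher and 1 lower (9.77% and 7.98% over all genes), late 3 and 0 (4.24% and 2.81%), and over the whole process 5 and 1 (10.3% and 7.70%), with median log2 fold changes of -0.41, 0.22 and -0.15. By adjusted p alone 6 rose and 16 fell early (35.5% and 33.7%), 15 rose and 5 fell late (22.5% and 22.7%), and 9 rose and 12 fell over the whole process (34.8% and 36.2%). Twist1, a mesenchymal factor, went from 37.3 FPKM at day 0 to 71.4 at day 4 and 80.8 at day 8. Foxf1, a factor of visceral mesoderm, fell early by a log2 fold change of -1.45 ± 0.29 (edgeR adjusted p = 0.00031). The T-box factors Tbx2 and Tbx3 moved in opposite directions. Tbx2 had 0.427, 0.803 and 2.57 FPKM and Tbx3 3.54, 2.11 and 1.34 at days 0, 4 and 8. Their whole log2 fold changes were 2.69 ± 0.17 (edgeR adjusted p = 7.1e-10) and -1.28 ± 0.11 (edgeR adjusted p = 2.4e-08). Lhx9 rose late (log2 fold change 1.41 ± 0.33, edgeR adjusted p = 0.0023). With at most 22.3 counts in a sample and its highest FPKM at day 8, its passing the filter on low counts may have rested on day 8.

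Genes of limb identity were chosen for mention after their values were seen. Tbx5, the forelimb factor, stayed at or below 0.06 FPKM and Tbx4, of the hindlimb, at or below 0.02, and Pitx1, of the hindlimb, was not listed. These genes do not stand for the whole list of factors of body position. On that list 21 of 46 names had at least 1 FPKM in all 9 samples. Among those 21, the lowest sample had 56.36 FPKM for Prrx1, 18.23 for Shox2, 8.45 for En1 and 5.5 for Msx1. Another 15 names, Tbx4 and Pitx1 among them, never exceeded 3 counts or were not listed.

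A list of signals of the body axis held genes of retinoic acid handling, the signal that induces anterior Hox genes in the embryo, and Gdf11, a ligand of the TGF-beta family. Of 8 tested, 2 were called higher and 1 lower in the early phase (9.77% and 7.98% over all genes), 0 and 1 late (4.24% and 2.81%), and 1 and 1 over the whole process (10.3% and 7.70%). By adjusted p alone 3 rose and 3 fell early (35.5% and 33.7%), 2 rose and 3 fell late (22.5% and 22.7%), and 4 rose and 3 fell over the whole process (34.8% and 36.2%). Aldh1a1, which makes retinoic acid, had 0.5, 0.39 and 0.26 FPKM at day 0, 19.69, 16.73 and 17.86 at day 4 and 1.46, 1.5 and 1.75 at day 8. The day 4 samples stood far above the rest, with a log2 fold change of 5.61 ± 0.15 early (edgeR adjusted p = 1.4e-14) and -3.47 ± 0.12 late (edgeR adjusted p = 1.5e-12). Cyp26b1, which degrades retinoic acid, fell from 6.33 FPKM at day 0 to 2.44 at day 4 and 1.68 at day 8, and Rxra, a receptor subunit, went from 44.1 to 95.0 and 52.2. Whether these genes had a part in the Hox changes was not tested.

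Adipocyte and fibroblast markers were read in the same samples. All 10 adipocyte markers were called higher in the early phase (9.77% of all genes), but only 4 had at least 1 FPKM in all 9 samples. Lep had 0 FPKM in all 3 day 0 samples, and Retn, Plin1, Cfd, Slc2a4 and Adipoq had at most 0.63. These genes may have passed the filter on low counts through the later days. The direction of their calls is then not independent of the filter. The summed FPKM of the 10 markers went from 145 ± 2.80 before induction to 6691 ± 1219 at day 4 and 8945 ± 442 at day 8. Fabp4 was the most abundant by the mean over the 9 samples. The label adipocyte is given to day 0 samples too, where the defining adipocyte gene Adipoq had 0.503 FPKM on average. All 10 fibroblast markers were listed, with Vim the most abundant by that mean although Col1a2 and Col1a1 were above it at day 8, and 2 were called lower in the early phase beside 7.98% of all genes (Dlk1, log2 fold change -2.13 ± 0.06, and Ly6a, -1.90 ± 0.05). By adjusted p alone 1 of the 10 rose and 8 fell early (35.5% and 33.7% over all genes), with a median log2 fold change of -0.34. In the late phase Dlk1 was called higher (log2 fold change 1.24 ± 0.06, edgeR adjusted p = 9.3e-11), and by adjusted p alone 5 fibroblast markers rose and 3 fell (22.5% and 22.7% over all genes). The part of these marker changes in the Hox values was not tested.

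Markers of other cell types were low. Summed FPKM at days 0, 4 and 8 was 3.38, 2.11 and 2.77 for 6 macrophage genes (Cd68 the most abundant by the mean over the 9 samples), 0.433, 0.217 and 0.32 for 5 endothelial genes (Pecam1), 0.75, 0.653 and 1.40 for 5 skeletal muscle genes (Acta1) and 0.143, 1.20 and 0.61 for 5 epithelial genes (Krt18). Tie1, Myod1 and Epcam were not listed. Of these 4 lists 6 genes passed the filter on low counts, and 4 of them were called in some comparison. Over all tested genes 9.77% were called higher and 7.98% lower early, 4.24% and 2.81% late, and 10.3% and 7.70% over the whole process. Lyz2, a macrophage gene with at most 49.5 counts, was called lower early (log2 fold change -2.10 ± 0.32, edgeR adjusted p = 2.1e-05) and higher late (1.25 ± 0.36, edgeR adjusted p = 0.0093). Krt18, with at most 14 counts, was called higher early (edgeR adjusted p = 1e-04), from 0 FPKM in all 3 day 0 samples to 0.29, 0.49 and 0.4 at day 4. Krt18 entered the test only through the later days, so the direction of its call was set by the filter. Pecam1 (log2 fold change 1.01 ± 0.35, edgeR adjusted p = 0.027) and Acta1 (1.16 ± 0.31, edgeR adjusted p = 0.0062) were called higher late. Pecam1 had at most 20 counts in a sample and was highest at day 8, so its passing the filter may have rested on day 8. Because the extraction text of the labels speaks of dorsal root ganglia, 9 sensory neuron genes were also read, and their summed FPKM was 3.10, 1.96 and 2.07, with Avil the most abundant by that mean and at day 0, and Snap25 at days 4 and 8. The sensory neuron sodium channel Scn10a never had more than 1 count. Avil fell from 2.32 FPKM at day 0 to 0.513 at day 4, and Snap25 rose from 0.0267 to 1.12. Their part in the Hox values was not tested.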

How the data were processed

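RNA-seq of 3T3-L1 cells at days 0, 4 and 8 (3 samples each) was used. Per the study's methods, clean reads were mapped with HISAT/Bowtie2 and quantified with RSEM. The labels name a library kit of another platform than the Illumina instrument of the methods and, for extraction, dorsal root ganglia. The submitters' processing notes name CASAVA 1.4 and Bowtie2. The authors deposited RSEM expected counts, not normalized (29.8% of them are not whole, with a tolerance of 0.005). FPKM, as deposited, corrects those counts for gene length and depth. Versions of the other tools and the genome build are not given in the sources used here. The lengths in the files were not used.

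Expected counts were rounded and fitted in R 4.3.3 with edgeR 4.0.16 (filterByExpr by day, TMM factors of 0.954 to 1.05, glmQLFit and glmQLFTest, all 9 samples, 1 coefficient per day, no covariate). P-values were adjusted by Benjamini-Hochberg over 13154 genes. Listed symbols were matched after trimming, and a gene without a row is called not listed. FPKM means and SDs per day are descriptions. The step was tested on simulated data. Replicates of a day differed by more than sampling noise, so none were merged. The replicate number was not used in the model, since the deviations of same-numbered samples correlated only weakly (0.0308 on average).

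The Hox members and the companion and marker lists were chosen with earlier results of these data known. The Hox genes are named. Some genes that these rules would name are not reported here. From each companion list and comparison, up to 4 called members with the largest log2 fold change are named. In lists under 10 genes, members with at least 1 FPKM in all 9 samples are named too. From marker lists the text names the most abundant gene and unlisted genes, and it names some others by choice. Alternatives were RLE, upper-quartile and library-size scaling, no filter or 10 counts in every sample, DESeq2 1.42.0, edgeR's exact test, limma 3.58.1 on log2(FPKM + 1) and log2(FPKM + 0.1), the 2 days alone, a replicate block, and leaving out each sample.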

Additional observations from a re-analysis of the deposited data

How the results depend on the processing

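The number of Hox genes called kept within 1.5 times of its value under most alternatives. In the early phase, adjusted p alone gave 5 higher and 6 lower, and 1 was lower both with 10 counts in every sample and with limma on log2(FPKM + 1); leaving out a sample gave 2 higher in each case and 2 to 3 lower. In the late phase, adjusted p alone gave 3 higher and 2 lower, library size alone 2 lower and limma on log2(FPKM + 1) 0 lower (2 at adjusted p alone in the edgeR fit); leaving out a sample gave 0 higher and 0 to 2 lower. Over the whole process, higher calls numbered 0 with library size alone and with limma at either pseudocount, 3 without a filter and 6 by adjusted p alone, and lower calls numbered 2 with 10 counts in every sample and with limma on log2(FPKM + 1); leaving out a sample gave 1 higher and 4 lower. The 2 added without a filter, Hoxb8 and Hoxd10, have at most 10 and 12 counts. Over all genes, higher calls over the whole process numbered 1356 (main fit) and 1190 (library size alone). With limma they numbered 753 and 1122 at pseudocounts of 1 and 0.1, and without a filter 1579 of 19019. Lower calls early, late and over the whole process numbered 1050, 370 and 1013 in the main fit. With limma on log2(FPKM + 1) these were 565, 136 and 528. With 10 counts in every sample they were 754, 173 and 682 of 11799. With library size alone 410 genes were lower late. Leaving out a sample gave 1036 to 1154 lower early and 345 to 394 lower late over all genes. With library size alone the median log2 fold change of all tested genes over the whole process was -0.13, against -0.02 with TMM. Small late values that passed no test changed sign: Hoxa7 to 0.0107 (RLE) and 0.0106 (DESeq2) and Hoxc6 to -0.0008 (library size alone). Leaving out samples gave late values from -0.13 to 0.0119 for Hoxa5, -0.0524 to 0.0521 for Hoxa7, -0.13 to 0.13 for Hoxb3 and -0.43 to 0.54 for Hoxc6. The cause of these changes was not tested. Same-numbered samples of different days correlated at 0.0308 on average (-0.0348 to 0.075) after the mean of each day was removed. Pairs with different numbers correlated at -0.0154 (-0.1 to 0.0628). Whether the numbers mark samples handled together was not tested. The replicate block gave 2 Hox genes higher and 3 lower early, 0 and 1 late, and 1 and 4 over the whole process. Over all genes it gave 1287 and 1053 early, 556 and 367 late, and 1360 and 1010 over the whole process. Genes with a few counts, such as Hoxa9 and Hoxb5, are limited by depth.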
